A study of Ovis aries with 36 samples.

Results

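Subcutaneous adipose tissue of fetal sheep was compared between mothers fed corn (CN) and mothers fed dried corn distillers grains (DG). The comparison rests on 8 RNA-seq libraries, 4 per diet, out of 36 in the study, which covered 3 tissues and 3 maternal diets. RNA of 26 fetuses carried by 15 dams was pooled, and each library holds 1 sex, with 2 female pools (F1 and F2) and 2 male pools (M1 and M2) per diet. CN F2 is listed by the study with 1 fetus only, and is called a pool here like the others. All ewes were of the Polypay breed, mated to a single sire and fed their diet from mid gestation until the fetuses were collected late in gestation. The 4 subcutaneous pools of the third diet, hay (HY, fed as alfalfa haylage), entered the fits to estimate the spread between pools and are set beside the leading genes at the end. In each diet, fetuses of the same dam fell into different pools, and every DG pool shared a dam with another DG pool. The pools are thus not fully separate families, and the p-values measure the spread between these pools, not between dams.

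Subcutaneous fat forms late in fetal life, when precursor cells in connective tissue near the skin commit to the adipocyte lineage and begin to store triglyceride. Ruminant adipocytes use acetate as a main building block of fatty acids, and fetal depots also hold cells with the machinery of heat production. The depot was sampled near the shoulder blade, and bulk RNA of a tissue piece holds transcripts of every cell type taken with it.

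Total counts ranged from 6705766 to 18220713 in the CN pools and from 9416187 to 20272024 in the DG pools, and 18008 of 34246 loci carried enough counts to be tested. The depot was labelled as fat, and adipocyte markers were present in every pool. The CPM of ADIPOQ, the adipocyte hormone adiponectin, was 1645, 973, 5663 and 2863 in the CN pools F1, F2, M1 and M2 and 982, 1002, 2750 and 706 in the DG pools in the same order. The summed CPM of the 6 adipocyte markers that matched a name (ADIPOQ, PLIN1, FABP4, LPL, CIDEC and LEP) ran from 2148 to 11073 in CN and from 2116 to 7007 in DG. Macrophage, lymphocyte, erythroid and keratinocyte markers were low, with summed CPM no higher than 155 in any of the 8 pools for each of these lists, and KRT1 and DSG3 were listed with no count in them. Lymphocyte marker sums did not overlap between the diets, at 10.5 to 15.1 CPM in DG against 15.7 to 23.8 in CN (exact permutation test on log2 sums, 2-sided, p = 0.0286, the smallest that 4 against 4 pools can give, and 0.314 after adjustment over 11 marker lists). Endothelial marker sums were 1125 to 2202 in CN and 970.2 to 1574 in DG. Schwann cell marker sums ran from 241 to 3310 in CN and from 309.8 to 852 in DG, and those of adipose progenitor markers from 758 to 1381 and from 819 to 1077. Smooth muscle and pericyte marker sums, at 552 to 640.2 in CN and 639 to 812 in DG, overlapped only at one end (exact permutation test, 2-sided, p = 0.0571, adjusted 0.314), and cartilage and bone marker sums were 10.9 to 72.1 in CN and 17.6 to 47.5 in DG.

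Skeletal muscle RNA was uneven between the pools. Its content was measured as the mean log2 CPM of 23 muscle markers (the muscle score) and as an estimated share of the RNA, scaled so that the muscle libraries of the same study average 100%. In CN the share was 27.3% in F1, 62.4% in F2, 8.80% in M1 and 14.8% in M2. In DG it was 111.6% in F1, 73.7% in F2, 4.99% in M1 and 81.4% in M2. Perirenal fat libraries held between 0.734% and 1.34%, and muscle libraries between 92.3% and 109.9%. The genes of the share were chosen and scaled on these same libraries, so these 2 ranges were in part built in. In subcutaneous fat, 3 of the 4 DG pools and 1 of the 4 CN pools had an estimated share above 50%. DG M1 was the only DG pool with a low one. The muscle scores of DG, 4.87 in M1 and 10.6 to 11.6 in the other pools, all lay outside the CN range of 6.61 to 10.3. Diet differences adjusted for the score therefore rest on a slope fitted over all subcutaneous pools. The mean score was 9.50 ± 3.12 (SD, n = 4) in DG and 8.53 ± 1.57 (SD, n = 4) in CN, a difference of 0.98 that did not pass an exact permutation test (2-sided, p = 0.60). The mean share was 67.9% ± 45.0 (SD, n = 4) in DG and 28.3% ± 23.99 (SD, n = 4) in CN (exact permutation test, 2-sided, p = 0.20). In such bulk RNA, fewer cells of a type and less RNA per cell cannot be told apart.

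**Figure D1:**
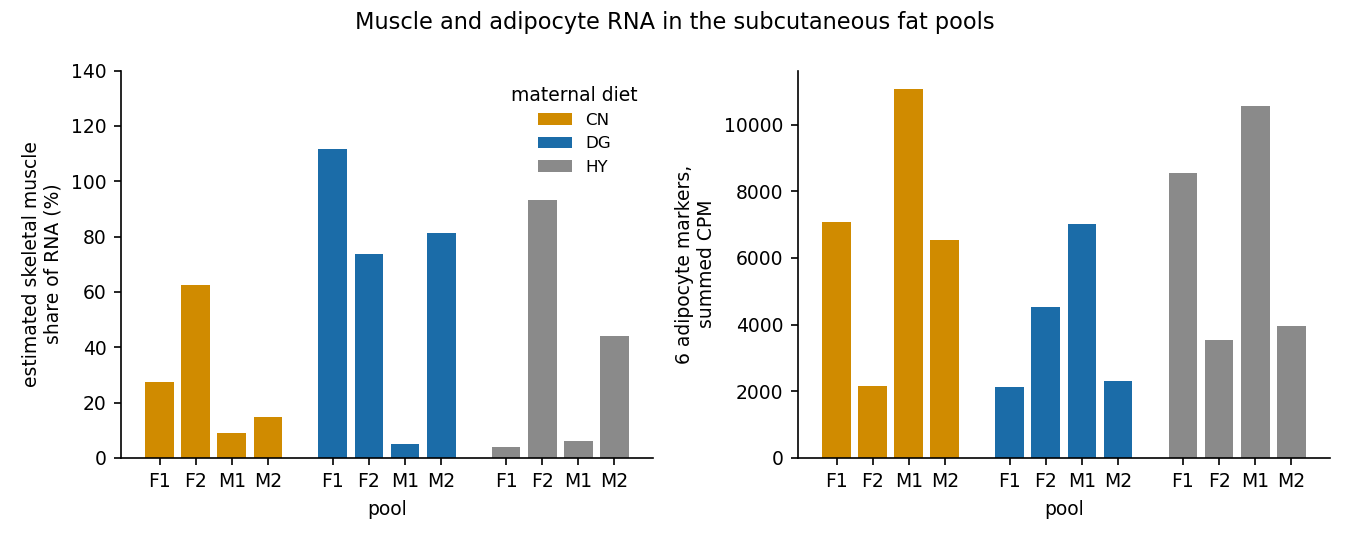
Estimated skeletal muscle share of the RNA in percent (left) and summed CPM of 6 adipocyte markers (right), 1 bar per subcutaneous fat pool, coloured by maternal diet. The DG pools F1, F2 and M2 stand at 73.7% muscle or more, while 3 of the 4 CN pools stand at 27.3% or less.

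The question of the comparison was which genes of the depot differ between the corn and distillers grains diets. Ranked with the muscle RNA taken into account, genes such as MSRB3, DUSP16, AMOTL1, NR1D2, PPP2CA and PTPN11 were higher in DG, and RDH10, ADM, ABCA9 and PIWIL3 were lower. Among the 27 genes described here that passed FDR ≤0.05 the log2 differences ran from -2.15 to 1.71. These calls came from the fit with the muscle score, and their number depended on how the muscle RNA entered the fit.

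With diet alone, 0 loci passed FDR ≤0.05 in edgeR's quasi-likelihood test and 0 passed FDR ≤0.20, with a lowest FDR of 0.257, while 2701 loci had an unadjusted p of 0.05 or less (7.66% of those tested were higher and 7.34% lower in DG). On the same 12 pools DESeq2 called 278 loci at FDR ≤0.05, edgeR's likelihood-ratio test 29, and limma voom with sample weights 3516. With the muscle score as a covariate, 116 loci passed FDR ≤0.05, 97 higher in DG (0.539% of tested loci) and 19 lower (0.106%), and 1696 passed FDR ≤0.20, 1015 higher (5.64%) and 681 lower (3.78%). With the linear muscle share in place of the score, 0 loci passed either threshold and 1612 had an unadjusted p of 0.05 or less (4.81% higher and 4.14% lower, against 9.02% and 8.10% with the score). Of the 116 loci, 116 kept their direction with the linear share and 98 had an unadjusted p of 0.05 or less there. With diet alone these numbers were 116 and 111. With the muscle signal subtracted from the CPM, 102 loci had a value, 86 kept their direction and 35 had an unadjusted p of 0.05 or less. In the pools with a share under 50%, with DG M1 as the lone DG pool, 97 of the 116 kept it. In those above, with CN F2 as the lone CN pool, 116 did. The loci were chosen in these same pools, so these counts are not independent evidence. Leaving out CN M1, CN M2 or DG M1 from the fit with the score brought the 116 to 0, leaving out CN F2, DG F2 or DG M2 to 9, 6 and 3, and leaving out CN F1 or DG F1 raised it to 439 and 376. The genes below are ranked by the fit with the score, and fold changes are log2 of DG over CN with a standard error from that fit.

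Muscle expression of the called loci was read from the muscle libraries. Among the 90 higher loci whose name was also found in the muscle and perirenal libraries, the median ratio of muscle to perirenal CPM was 2.16, against 0.735 over all tested loci, and 49 of the 90 were at least 2-fold higher in muscle (54.4%, against 14.8%). The 13 lower loci with a ratio had a median of 0.177, and 12 of them were below 1. In the muscle libraries of the same fetuses, 91 of the 91 higher genes that could be tested there had a positive DG over CN difference. Over all names 6997 of 13163 did so. The median log2 value was 0.26 against 0.02 over all names. Of the 91, 2 were higher at FDR ≤0.05, against 160 of the 13163. At an unadjusted p of 0.05 or less in edgeR, 39 of the 91 were higher, against 1719 of the 13163. Of the 11 lower genes tested in muscle, 8 had a negative difference (median -0.19), against 6166 of the 13163. The part of muscle RNA in these calls was not tested.

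MSRB3, a methionine sulfoxide reductase that repairs oxidised proteins, led the genes that rose (chromosome 3, 154215628 to 154397986 on Oar_v3.1). Its CPM was 14.1, 21.0, 9.15 and 12.0 in CN and 58.2, 63.8, 22.2 and 52.6 in DG, in the order F1, F2, M1 and M2, and the groups did not overlap. The log2 difference was 1.52 ± 0.17 (SE, FDR = 0.0121). DUSP16, a phosphatase that switches off stress-activated MAP kinases (chromosome 3, 202123181 to 202213674), was at 6.68, 10.96, 7.78 and 7.07 CPM in CN and 29.6, 44.7, 18.3 and 28.5 in DG. All 4 DG pools lay above all 4 CN pools, which held for 3.57% of tested loci, and this includes the muscle-poor DG pool M1 (log2 difference 1.71 ± 0.22, SE, FDR = 0.0184). AMOTL1, an angiomotin-family scaffold of cell junctions (chromosome 15, 15030481 to 15231909), also separated the diets, with 114, 122, 83.0 and 87.5 CPM in CN and 309, 437, 140.3 and 313 in DG (log2 difference 1.30 ± 0.18, SE, FDR = 0.0193).

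In the other 7 leading genes that rose, the muscle-poor pool DG M1 lay inside the CN range or, for DCAF6, below it. ARMCX3, a protein of the mitochondrial outer membrane, was at 106, 152, 81.4 and 106 CPM in CN and 268, 305, 143 and 259.5 in DG (log2 difference 0.95 ± 0.13, SE, FDR = 0.0184). MAP3K4, a kinase at the head of stress MAP kinase cascades, was at 30.4, 25.1, 18.3 and 16.3 CPM in CN and 76.1, 69.3, 27.0 and 60.8 in DG (log2 difference 1.10 ± 0.16, SE, FDR = 0.0235). For both, DG F1, F2 and M2 exceeded every CN pool and DG M1 did not. NT5C2, a cytosolic nucleotidase of purine metabolism, GOLGA4, a golgin of the trans-Golgi network, EIF3J, a subunit of translation initiation factor 3, DCAF6, an adaptor of a ubiquitin ligase, and RNF10, a RING-finger protein, had log2 differences of 1.13, 0.88, 0.96, 0.79 and 0.88 at FDR between 0.0235 and 0.0246. DCAF6 was lowest of all 8 pools in DG M1, at 25.5 CPM against 26.1 to 59.2 in CN, and its difference with the linear share was 0.24 ± 0.21 (unadjusted p = 0.286).

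Of the 10 leading genes that were lower in DG, 9 passed FDR ≤0.05 and OXNAD1 stood at 0.0509. RDH10, the retinol dehydrogenase that makes the precursor of retinoic acid (chromosome 9, 49447569 to 49477201), was at 64.9, 61.2, 72.2 and 85.5 CPM in CN and 28.7, 36.7, 40.1 and 39.9 in DG. The 2 groups did not overlap, which held in this direction for 3.28% of tested loci, and the log2 difference was -0.88 ± 0.17 (SE, FDR = 0.0441). ADM, the vasodilator peptide adrenomedullin (chromosome 15, 41939208 to 41943314), was at 28.1, 42.8, 26.9 and 34.3 CPM in CN and 22.7, 18.4, 14.4 and 20.1 in DG (log2 difference -0.88 ± 0.18, SE, FDR = 0.0491). DG M1 was the lowest of the 8 pools for ADM, and the difference with the linear share was as large, at -0.996 ± 0.20 (unadjusted p = 0.000242). ABCA9, a member of the lipid-transporting ABCA family (chromosome 11, 60387153 to 60436572), was at 21.8, 30.8, 30.7 and 16.6 CPM in CN and 7.33, 7.07, 13.4 and 7.38 in DG (log2 difference -1.44 ± 0.28, SE, FDR = 0.0441). NRBP2, a pseudokinase, fell by 0.72 ± 0.15 (SE) on the log2 scale (FDR = 0.0474) with no overlap between the groups.

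PIWIL3, an Argonaute-family protein known from the germ line, had 16.8, 4.88, 10.5 and 25.1 CPM in CN and 2.80, 2.31, 4.27 and 2.04 in DG (log2 difference -2.15 ± 0.44, SE, FDR = 0.0496) and between 2.83 and 10.3 in HY. NNAT, the imprinted membrane protein neuronatin, was at 168, 44.7, 101 and 152 CPM in CN and 23.96, 30.3, 69.1 and 29.8 in DG (log2 difference -1.56 ± 0.31, SE, FDR = 0.0488), and DG M1 lay above CN F2. PPM1M, a protein phosphatase of the PP2C family, and ADTRP, a hydrolase of fatty acid esters, fell by 0.78 ± 0.13 (FDR = 0.0348) and 1.07 ± 0.21 (FDR = 0.0441) on the log2 scale, and in each of them DG M1 lay inside the CN range, at 55.0 and 19.4 CPM. ABCD4, which carries vitamin B12 out of lysosomes, fell by 0.64 ± 0.13 (SE, FDR = 0.0496). The muscle to perirenal ratio of the 10 leading genes was at most 0.396. With the muscle signal subtracted from the CPM instead, where the median of all loci was -0.53, the log2 differences of RDH10, NNAT, PPM1M and ADTRP were positive, at 0.11, 0.14, 0.34 and 0.47. The share of DG F1 exceeded the cap of 0.98 used there, so its remaining signal was scaled up most.

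**Figure D2:**
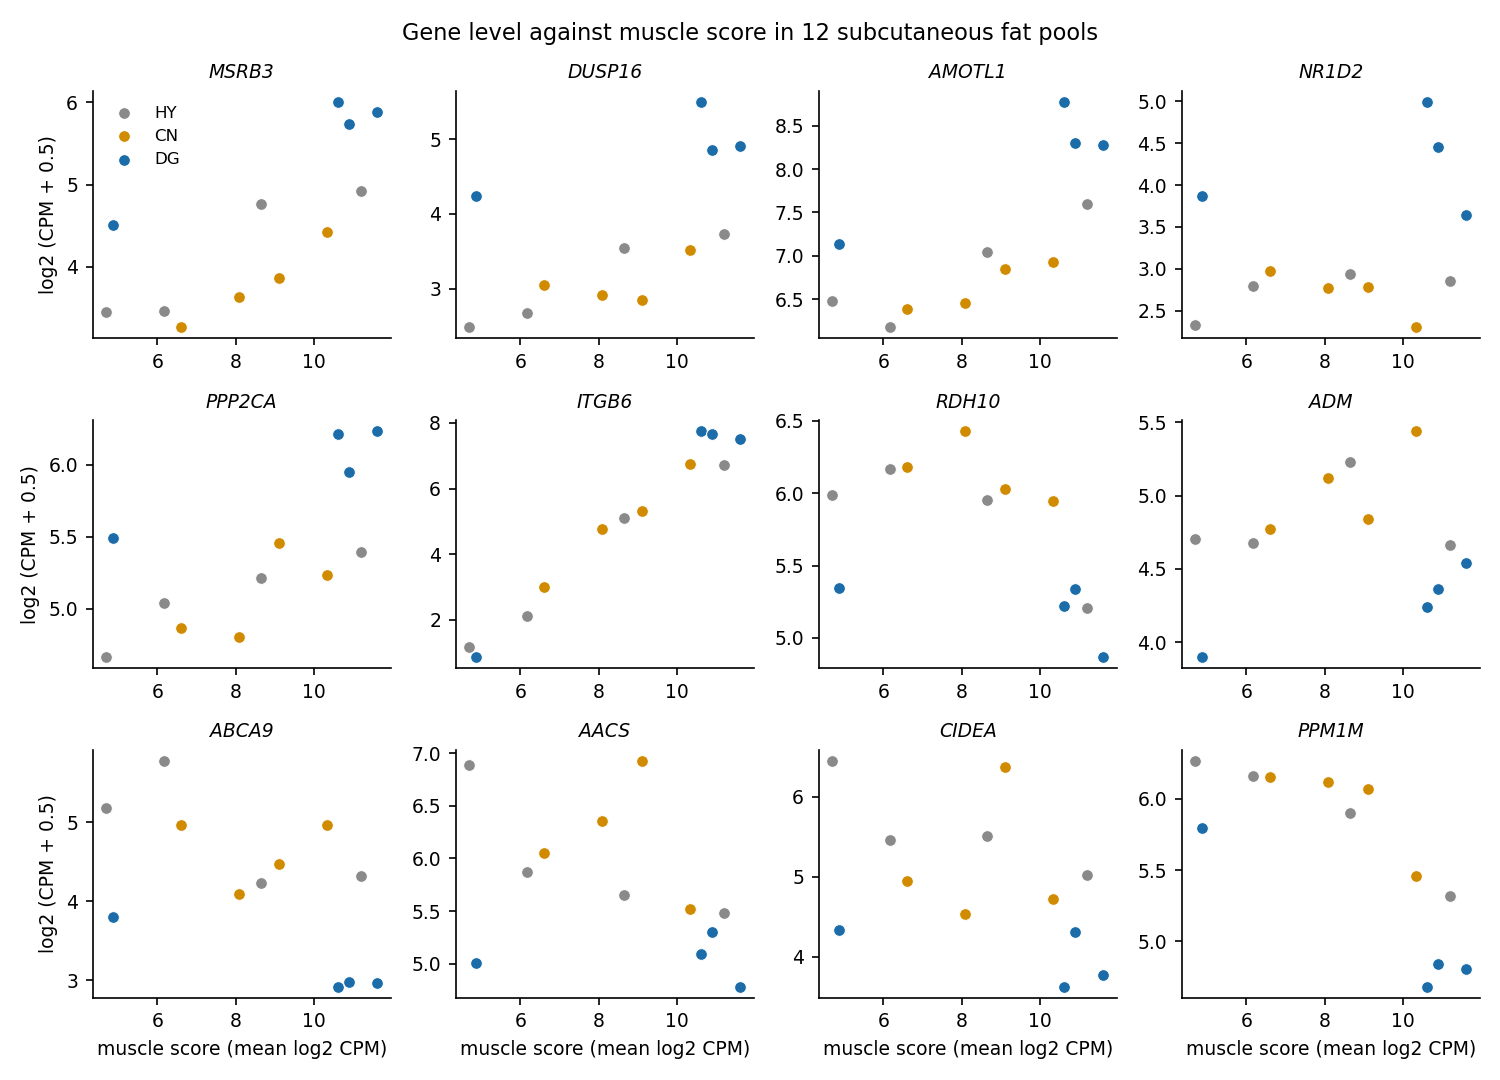
Level of 12 genes as log2 of CPM plus 0.5 against the muscle score in the 12 subcutaneous fat pools, 1 point per pool, coloured by maternal diet. For DUSP16 and NR1D2 the DG pools lie above all CN pools, for ADM they lie below, and for ITGB6 all 12 pools follow the muscle score. No DG pool has a muscle score within the CN range.

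**Figure D3:**
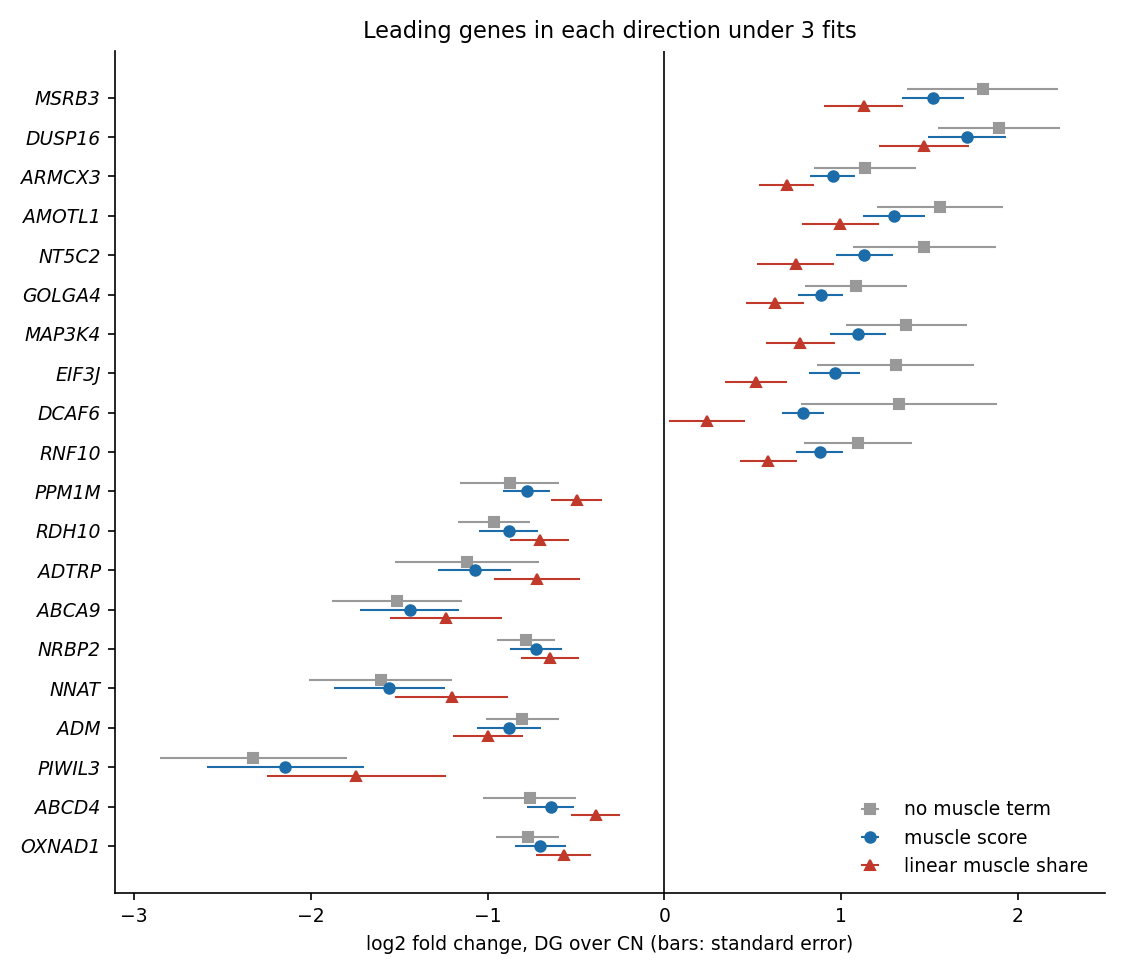
Log2 fold change of DG over CN with its standard error for the 10 leading genes in each direction, from fits with no muscle term, with the muscle score and with the linear muscle share. For the 10 genes that rose, the value shrinks from the first fit to the third, from 1.33 to 0.24 in DCAF6.

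Another list held 27 genes that the study singled out for this depot or, for the chromatin genes H1FX, HIST2H2BE, MBD3 and SATB1, for fetal adipose tissues in general. The study used these same libraries, so the directions of the genes are not independent evidence. Of the 27, 26 matched a name. With the score 4 of them rose at FDR ≤0.05 and 0 fell (0.539% and 0.106% of all tested loci), and 16 passed FDR ≤0.20, 12 higher and 4 lower (5.64% and 3.78% of all tested loci). Their median log2 difference was 0.72 with the score, 1.11 without it and 0.13 with the linear share, and 16 of the 26 were at least 2-fold higher in muscle than in perirenal fat. The 4 were AMOT, PRKAB2, NR1D2 and SATB1. AMOT, angiomotin (chromosome X, 115700917 to 115768057), was at 106, 128, 65.9 and 84.2 CPM in CN and 272, 399, 83.5 and 282 in DG (log2 difference 1.04 ± 0.19, SE, FDR = 0.0387). PRKAB2, a scaffold subunit of the energy sensor AMPK (chromosome 1, 97163298 to 97179419), was at 92.5, 117, 74.1 and 90.4 CPM in CN and 197, 252, 92.4 and 229.6 in DG (log2 difference 0.78 ± 0.13, SE, FDR = 0.0348). SATB1, a chromatin organiser (chromosome 1, 273521291 to 273600112), was at 8.41, 6.82, 5.05 and 3.75 CPM in CN and 23.8, 30.4, 5.32 and 29.7 in DG (log2 difference 1.34 ± 0.26, SE, FDR = 0.0441). In all of these 3, DG M1 lay inside the CN range, and over the pools with a muscle share under 50%, which leave 3 CN pools and DG M1, AMOT, SATB1 and PRKAB2 had differences of -0.01, -0.11 and 0.13.

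NR1D2, the clock repressor REV-ERB beta (chromosome 26, 40487127 to 40503568), separated the diets in every pool. Its CPM was 6.37, 4.43, 7.37 and 6.35 in CN and 12.0, 31.4, 14.1 and 21.4 in DG, with no overlap, and between 4.53 and 7.13 in HY. Its muscle to perirenal ratio was 30.1, above the 10-fold limit set for the leading genes, with mean CPM of 127 in CN and 144 in DG muscle libraries, where loci were assembled separately. The log2 difference was 1.64 ± 0.30 (SE, FDR = 0.0415) with the score and 1.67 ± 0.34 (unadjusted p = 0.000318) with the linear share. ARID5B, a transcription factor needed for triglyceride storage, was likewise higher in every DG pool, at 114, 118, 70.7 and 74.1 CPM against 43.3, 57.2, 47.1 and 52.5, and missed the threshold (log2 difference 0.81 ± 0.17, SE, FDR = 0.0570). TGFB2, a transforming growth factor ligand, and HIST2H2BE, a histone H2B gene, gave 0.87 and 0.75 at FDR = 0.0524 and 0.0593.

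ITGB6, an integrin subunit that activates latent TGF-beta, had a muscle to perirenal ratio of 1412 and was at 38.9, 106, 7.51 and 26.5 CPM in CN and 183, 213, 1.33 and 203 in DG. Its log2 difference was 1.74 ± 1.38 without the score, 0.11 ± 0.31 (SE, FDR = 0.885) with it, and -1.10 with the linear share, so its sign differed between the fits. SHISA2, an inhibitor of Wnt and FGF receptor maturation, went from 1.48 without the score to 0.35 with it and -0.93 with the linear share. KREMEN1, a receptor of the Dickkopf proteins, was at 13.0, 4.32, 1.64 and 3.17 CPM in CN and 31.9, 86.2, 4.65 and 53.7 in DG (log2 difference 2.097 ± 0.55, SE, FDR = 0.104). SYNPO2L and MURC, proteins of the Z-disc and of the caveolae of striated muscle, were at 0.19 and 1.52 CPM in DG M1 against 24.4 to 48.4 and 43.8 to 113 in the other 3 DG pools. SOX6 and UBR3 (log2 differences of 0.67 and 0.55), WDTC1, PLA2G7 and MBD3 (1.43, 1.12 and 0.71) and H1FX (-0.83) did not pass FDR ≤0.05 with the score.

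No gene of fatty acid and triglyceride synthesis passed FDR ≤0.05, and most of their differences were negative. Of 17 listed, 15 were tested, 14 had a negative difference and 3 passed FDR ≤0.20, all lower (3.78% of tested loci did so). Their median log2 difference was -0.78 with the score, -0.90 without it and -0.49 with the linear share, beside medians of -0.03, -0.01 and -0.05 over all tested loci. With the muscle signal subtracted, at a capped share in DG F1, ACLY, ME1 and ACACA turned positive, at 0.33, 0.61 and 0.58. ADIPOQ did so too, at 0.82, while AACS stayed negative at -0.47. AACS, which activates acetoacetate for lipid synthesis (chromosome 17, 50316418 to 50370685), was at 121, 45.3, 65.7 and 81.2 CPM in CN and 27.1, 33.6, 31.6 and 39.1 in DG with no overlap, and its log2 difference was -1.14 ± 0.32 (SE, FDR = 0.110). ACLY, the ATP citrate lyase that supplies cytosolic acetyl-CoA, was at 878, 366, 294 and 484 CPM in CN and 124, 189.6, 271 and 262 in DG, also without overlap (log2 difference -1.19 ± 0.39, SE, FDR = 0.158). ME1, the malic enzyme that supplies NADPH, and ACACA, the acetyl-CoA carboxylase that commits carbon to fatty acids, had -0.70 (FDR = 0.180) and -0.65 (FDR = 0.221), and DG M1 lay within the CN range for ACACA. The summed CPM of the list ran from 1826 to 5344 in CN and from 1250 to 2572 in DG, and the median adipocyte marker sum was 6806 CPM in CN and 3420 in DG (exact permutation test, 2-sided, p = 0.314, adjusted 0.691). The part of adipocyte content in these values was not tested.

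Lipid droplet proteins and lipases gave 10 negative differences among 12 tested members (median -0.31), and 2 passed FDR ≤0.20, both lower (3.78% of all tested loci). CIDEA, a droplet-enlarging protein also used as a brown fat marker, was at 82.0, 25.9, 30.4 and 22.8 CPM in CN and 13.2, 11.9, 19.8 and 19.3 in DG, without overlap (log2 difference -1.27 ± 0.40, SE, FDR = 0.156). PNPLA3, a droplet-bound acylglycerol lipase, and CIDEC, which fuses droplets, had differences of -0.83 (FDR = 0.196) and -0.83 (FDR = 0.293), and the groups overlapped for both. Brown fat thermogenic genes had 8 negative differences among 11 tested (median -0.38), with 2 past FDR ≤0.20, both lower (3.78% of all tested loci). These were CIDEA and EBF2, a brown fat transcription factor (-0.37, FDR = 0.182). UCP1, the uncoupling protein of heat-producing fat, was at 63.2, 22.0, 134 and 92.4 CPM in CN and 10.5, 30.3, 55.0 and 46.2 in DG, and the groups overlapped (log2 difference -0.98 ± 0.49, SE, FDR = 0.333). ADRB3, the beta-3 adrenergic receptor, had -0.74 (FDR = 0.311).

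Cholesterol synthesis and uptake genes had negative differences in 14 of 16 tested members (median -0.23), with 3 past FDR ≤0.20, all lower (3.78% of all tested loci). MSMO1, a sterol methyl oxidase, was at 104, 117, 136 and 134 CPM in CN and 53.6, 85.7, 94.5 and 83.0 in DG, without overlap (log2 difference -0.62 ± 0.18, SE, FDR = 0.124). INSIG1, which holds the sterol sensor in the endoplasmic reticulum, and IDI1, an isoprenoid isomerase, had -0.69 (FDR = 0.126) and -0.66 (FDR = 0.175). CYP51A1, a sterol demethylase, had -0.46 (FDR = 0.293), and its groups overlapped. Over the list, 2 members lay below CN in all 4 DG pools, as did 3.28% of all tested loci. Fatty acid uptake genes had 8 negative differences of 12 (median -0.26), and this median was 0.02 with the linear share. The only member past FDR ≤0.20 was higher in DG (5.64% of all tested loci). ANGPTL4, an inhibitor of lipoprotein lipase, was at 85.0, 19.7, 86.1 and 52.4 CPM in CN and 30.1, 27.6, 34.8 and 27.6 in DG (log2 difference -0.82 ± 0.33, SE, FDR = 0.235), and ACSL1, a long-chain acyl-CoA synthetase, had -0.56 (FDR = 0.286). SLC27A1, a fatty acid transport protein, had 0.47 (FDR = 0.472). Fatty acid oxidation genes had no common direction, with 7 of 13 positive (median 0.05). Among them CPT1A, the carnitine palmitoyltransferase that admits fatty acids to mitochondria, had -0.83 (FDR = 0.179) and PPARA, the fatty acid-sensing nuclear receptor, had 0.88 (FDR = 0.110), with all 4 DG pools above CN. PDK4, a kinase that restrains glucose oxidation, and HADHB, of the mitochondrial trifunctional protein, had 0.51 and -0.35 (FDR = 0.289 and 0.473). The 4 adipokines tested were all negative (median -0.37) and 0 passed FDR ≤0.20, ADIPOQ with -0.83 (FDR = 0.329) and RARRES2, chemerin, with -0.38 (FDR = 0.305). RBP4, the retinol carrier, and LEP, leptin, had -0.36 and -0.33 (FDR = 0.602 and 0.698).

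Regulators of the adipocyte lineage had no common direction. Of 16 tested adipogenic transcription regulators 5 were positive (median -0.12), and 2 passed FDR ≤0.20 in each direction (5.64% of all tested loci were higher and 3.78% lower). SOX6 and ARID5B were the higher ones, and EBF2 and GATA3 (-0.64, FDR = 0.169), which holds precursors back from adipocyte conversion, the lower ones. MLXIPL, the carbohydrate response factor ChREBP, was at 68.3, 30.4, 41.4 and 44.6 CPM in CN and 21.2, 27.7, 23.7 and 31.96 in DG (log2 difference -0.70 ± 0.31, SE, FDR = 0.278). Extracellular matrix genes were spread around 0, with 13 of 23 positive (median 0.06) and 0 past FDR ≤0.20, COL4A1 at -0.47 (FDR = 0.293) and COL5A1 at 0.47 (FDR = 0.296). COL1A2, a chain of type I collagen, and POSTN, periostin, had 0.60 and -0.63 (FDR = 0.310 and 0.329).

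**Figure D4:**
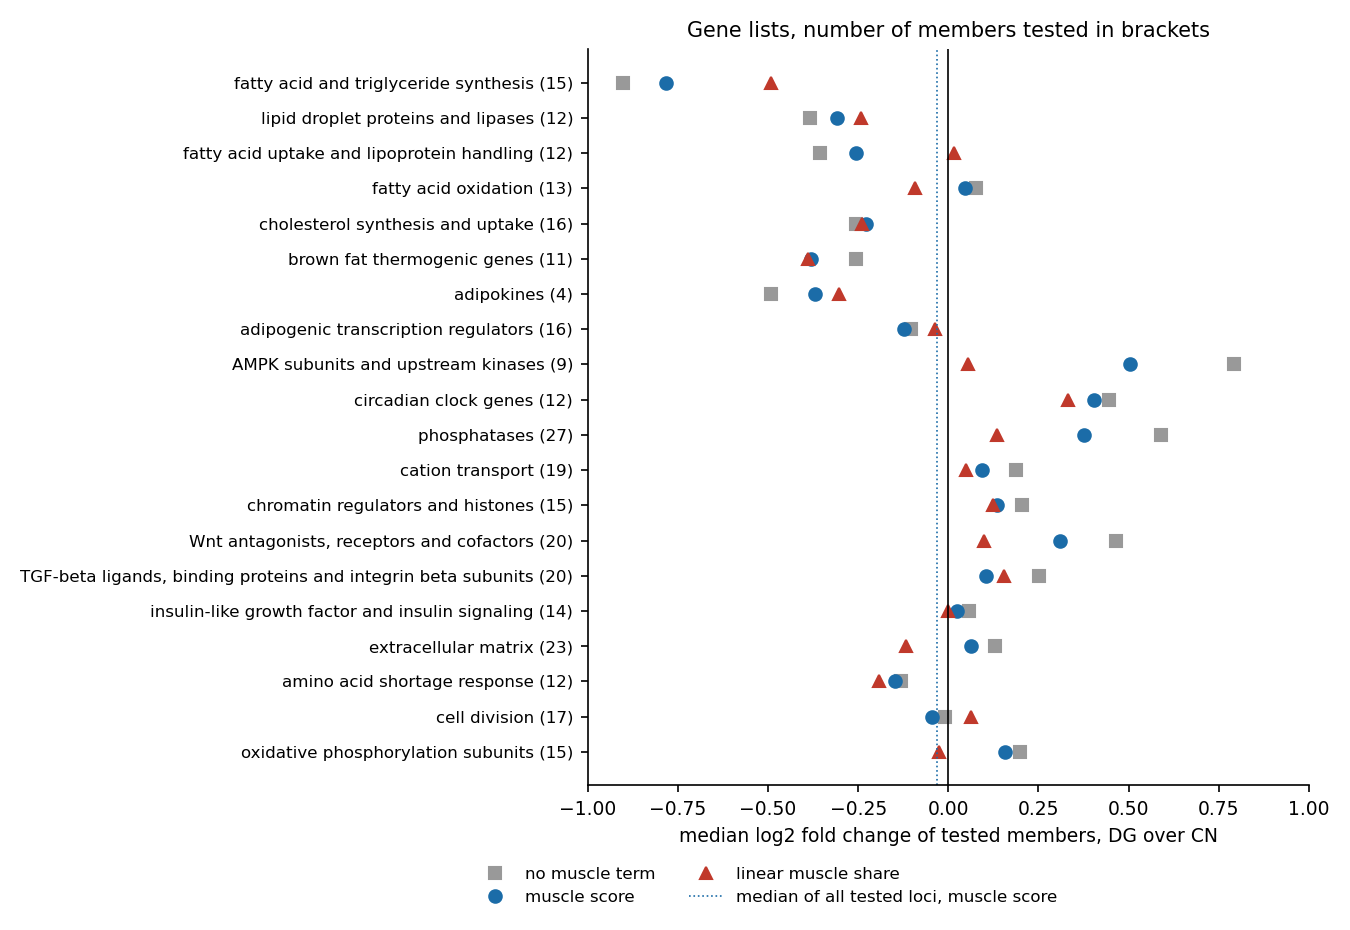
Median log2 fold change of DG over CN over the tested members of the 20 functional gene lists, from 3 fits, without the lists of cell type markers and of genes singled out by the study, with the number of members tested in brackets. Fatty acid and triglyceride synthesis is the lowest of these 20 in each fit, at -0.90, -0.78 and -0.49, and AMPK, phosphatase and Wnt medians move towards 0 from the first fit to the third.

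Phosphatases had 23 of 27 tested members positive, and 4 rose at FDR ≤0.05, DUSP16, PPP2CA, PPM1B and PTPN11 (0.539% of all tested loci did so), with 9 of the 27 higher at FDR ≤0.20 (5.64%). The study reported phosphatase terms as enriched in these same libraries, so these counts are not independent evidence. In the list, 9 members were at least 2-fold higher in muscle than in perirenal fat. PPM1M, the phosphatase described above that fell, was not a member of the list. Their median was 0.38 with the score and 0.14 with the linear share. PPP2CA, the catalytic subunit of protein phosphatase 2A (chromosome 26, 25589854 to 25612631), was at 43.4, 37.0, 28.7 and 27.4 CPM in CN and 74.5, 73.7, 44.3 and 61.3 in DG without overlap (log2 difference 0.77 ± 0.14, SE, FDR = 0.0387). PTPN11, the tyrosine phosphatase SHP2 of growth factor signaling, also separated the diets, with 41.0, 54.7, 40.1 and 49.0 CPM in CN and 67.8, 87.1, 75.0 and 72.9 in DG (log2 difference 0.68 ± 0.14, SE, FDR = 0.0496). In it the muscle-poor DG M1 was the second highest of the 4 DG pools, and the difference with the linear share was 0.63 ± 0.15 (unadjusted p = 0.00123), while it was -2.46 with the muscle signal subtracted. PPM1B, a PP2C phosphatase, was at 68.2, 91.4, 58.7 and 63.3 CPM in CN and 187, 176, 64.0 and 149.8 in DG (log2 difference 0.76 ± 0.14, SE, FDR = 0.0410), and there DG M1 lay inside the CN range. AMPK subunits and their upstream kinases had 6 of 9 positive (median 0.50 with the score and 0.05 with the linear share), with PRKAB2 past FDR ≤0.05. CAMKK2, a calcium-dependent kinase that activates AMPK, had 1.02 (FDR = 0.0698), and it was highest in DG M1, at 10.3 CPM against 3.03 to 4.09 in CN. PRKAA2, a catalytic subunit, was at 36.0, 51.5, 13.7 and 30.6 CPM in CN and 99.2, 146, 9.87 and 126 in DG, and its difference was 0.73 (FDR = 0.207) with the score and 0.04 with the linear share. PRKAB1, the other beta subunit, had -0.40 (FDR = 0.300).

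Circadian clock genes had 10 of 12 positive differences, with NR1D2 past FDR ≤0.05 and TEF, an output factor of the clock, at 0.77 (FDR = 0.0637). Their medians of 0.41 and, with the linear share, 0.33 were closer together than those of the phosphatases. NR1D1, the paralog of NR1D2, and NFIL3, a repressor of clock output, had 0.41 and -0.30 (FDR = 0.273 and 0.282). Wnt antagonists, receptors and cofactors had 16 of 20 positive (median 0.31, with the linear share 0.10), 3 past FDR ≤0.20, all higher (5.64% of all tested loci). Among them were LRP4 at 0.72 (FDR = 0.173) and LRP6, a Wnt co-receptor, at 0.40 (FDR = 0.188). TCF7L2, a transcription factor of the pathway, had -0.47 (FDR = 0.210). TGF-beta ligands, binding proteins and integrin subunits had 13 of 20 positive (median 0.11), and SMAD3, the signal transducer of TGF-beta receptors, was at 4.83, 5.79, 4.64 and 2.02 CPM in CN and 12.6, 12.9, 6.84 and 13.97 in DG without overlap (log2 difference 1.22 ± 0.26, SE, FDR = 0.0589). TGFBR1, a TGF-beta receptor, and LTBP2, a latent TGF-beta binding protein, had 0.38 and -0.52 (FDR = 0.230 and 0.233).

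Cation transport genes had 12 of 19 positive (median 0.09) and KCNMA1, the large-conductance potassium channel, was past FDR ≤0.05 with 31.0, 40.7, 20.3 and 24.4 CPM in CN and 75.6, 104, 33.5 and 71.0 in DG (log2 difference 1.01 ± 0.18, SE, FDR = 0.0387). The study reported cation transport terms from these same libraries too, so this list is not independent evidence either. ATP1B1, a sodium pump subunit, had 1.03 (FDR = 0.0610) and a muscle to perirenal ratio of 8.84. ATP2A2, the calcium pump of slow muscle and heart, and CACNA2D1, a calcium channel subunit, had 0.93 and 0.61 (FDR = 0.139 and 0.165) with ratios of 23.3 and 19.8. Chromatin regulators and histones had 10 of 15 positive (median 0.13), with SATB1 past FDR ≤0.05 and the DNA methyltransferases DNMT3B and DNMT3A at 0.40 and 0.29 (FDR = 0.155 and 0.273). Insulin and insulin-like growth factor signaling had 8 of 14 positive (median 0.02), IGF1R at 1.002 (FDR = 0.139) with all 4 DG pools above CN and IGF2R at 0.60 (FDR = 0.316). IGFBP7 and IRS1 had -0.36 and 0.65 (FDR = 0.367 and 0.466). Amino acid shortage genes, cell division genes and oxidative phosphorylation subunits had 0 members past FDR ≤0.05. Of the first list 4 of 12 were positive, with PSPH at -0.68, TRIB3 at -0.60, SESN2 at -0.68 and ATF3 at 1.47. Of the cell division genes 8 of 17 were positive, with MKI67 at 0.72, CCNA2 at -0.38, AURKA at -0.39 and TOP2A at 0.36. Of the oxidative phosphorylation subunits 10 of 15 were positive, with SDHC at 0.67, SDHB at 0.30, ATP5B at 0.34 and UQCRC2 at 0.19.

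The other 2 tissues of the same fetuses were set beside these values. Perirenal fat gave 21 loci at FDR ≤0.05 for DG against CN (0.115% of those tested), all higher. None of the 97 and 19 subcutaneous loci was among them by name. Of the 89 higher genes tested in perirenal fat, 60 had a positive difference (median 0.09), against 6352 of all 12589 names (median 0.003). Of the 12 lower genes 11 had a negative one (median -0.30), against 6237 of the 12589. At an unadjusted p of 0.05 or less in edgeR, 8 of the 89 were higher, against 1088 of the 12589. Of the 12, 3 were lower at that p, against 331 of the 12589. DUSP16 was -0.09 ± 0.14 in perirenal fat and 1.37 ± 0.39 in muscle, NR1D2 was 0.12 ± 0.42 and 0.18 ± 0.13, MSRB3 0.30 ± 0.16 and 0.05 ± 0.14, and AMOTL1 0.23 ± 0.10 and 0.61 ± 0.14, each as a log2 difference with its standard error. For PPM1M the values were -0.41 ± 0.15 and -0.36 ± 0.15, and for NNAT -0.68 ± 0.30 and 1.23 ± 0.27, the latter in the opposite direction and past FDR ≤0.05 in muscle. A test of the difference between the depots, over 12982 gene names, called 0 at FDR ≤0.05 in edgeR (964 at an unadjusted p of 0.05 or less), and with the muscle score also 0 (1174). DUSP16 came nearest among the named genes in the fit with the score, with a depot difference of 1.90 on the log2 scale and FDR = 0.105. A test of the difference between sexes in the diet effect called 0 loci at FDR ≤0.05 (322 at an unadjusted p of 0.05 or less).

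**Figure D5:**
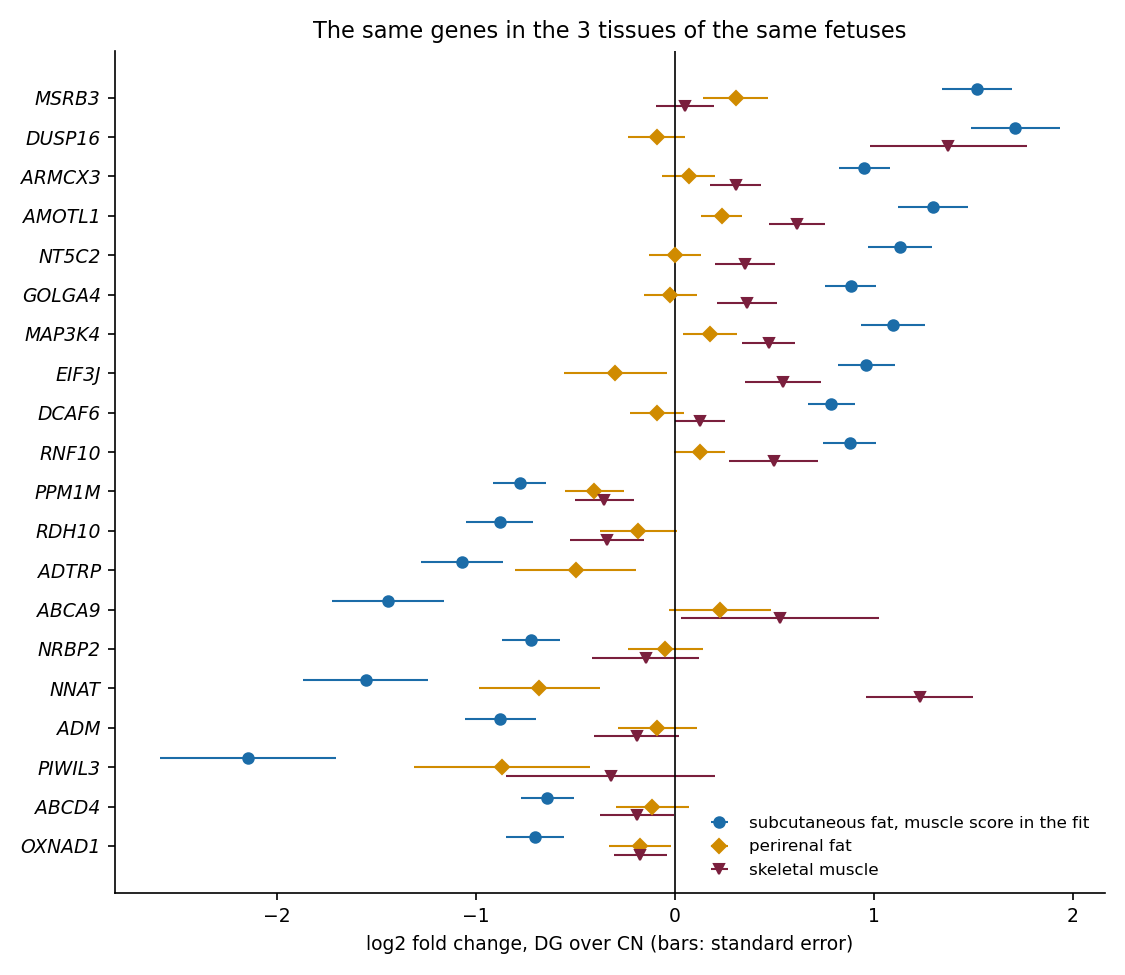
Log2 fold change of DG over CN with its standard error for the 10 leading genes in each direction in subcutaneous fat, perirenal fat and skeletal muscle. For the 10 genes that rose, the perirenal points lie between -0.30 and 0.30 and the muscle points between 0.05 and 1.37.

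Against the HY pools, which share the DG pools with the comparison above, the leading genes gave the following values in the fit with the score. For DUSP16 the DG over HY difference was 1.53 (FDR = 0.0689) and the CN over HY difference -0.18 (FDR = 0.786). For NR1D2 they were 1.58 (FDR = 0.0689) and -0.06 (FDR = 0.957). ABCA9 had -1.57 (FDR = 0.0689) and -0.13 (FDR = 0.883). MSRB3 had 0.93 (FDR = 0.0689) and -0.59 (FDR = 0.448), and PIWIL3 had -0.49 (FDR = 0.609) and 1.66 (FDR = 0.448).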

How the data were processed

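mRNA sequencing was done on pooled RNA of fetal sheep tissues. Per the labels and methods, the authors aligned reads with TopHat2 2.0.4 to Oar_v3.1, assembled loci with Cufflinks 2.1.1 and counted reads per locus with HTSeq, and deposited 1 table of raw counts per pool. Whether counting used strand is not given in the sources used here, so overlapping and antisense genes are uncertain, as are names with several loci, which were taken at the locus with most counts. A locus region can span neighbouring genes.

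Loci were tested in edgeR 4.0.16 (TMM scaling, quasi-likelihood, robust) on the 12 subcutaneous pools if they passed its filter by diet with a minimum count of 10, with Benjamini-Hochberg adjustment over all 18008 loci. CPM were TMM scaled. The muscle score was the mean log2 of CPM plus 0.5 over 23 markers. The muscle share was the summed CPM of 749 names at least 10-fold higher in muscle than in perirenal fat (0.1 CPM added), relative to the muscle libraries. For the subtraction, the mean muscle CPM times the share, capped at 0.98, was taken from the CPM of each pool. Negative values were set to 0, and the result was divided by the remaining share. The SE is the log2 difference divided by the square root of F. Named were the genes singled out by the study, the 10 named loci of smallest p in each direction (mean count over the 8 pools of 50 or more, under 10-fold muscle enrichment), and the 4 members of smallest p in each functional list; adipocyte markers were also named. Samples, comparisons and the 31 gene lists were chosen with earlier results of these data known; 2 genes are not reported here and were left out of the lists. Pool labels F1 to M2 mark sex and a number. The fits were tested on simulated counts with known changes. Where a muscle effect was simulated, it followed the score used in the fit, so the choice of muscle covariate was not tested there. Alternatives (other scalings, filters, tools, covariates, and each pool left out) were run as given below. DESeq2 1.42.0 and limma 3.58.1 served only there. Counting depth limits loci near the filter, and R 4.3.3 and scipy 1.17.1 were used.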

Additional observations from a re-analysis of the deposited data

Results flagged for a closer look

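In some results 1 of the 4 pools of a diet stood far from the other 3, by its gap to the nearest pool as a share of the whole range, for the muscle score and for the log2 CPM of named genes. Chance alone gives this in about 1 in 20 independent groups, and 107 named genes were examined beside the score. Genes that vary with the muscle score are not independent of its outlier or of each other. In DG M1 this held for the muscle score (0.853), ITGB6 (0.968), SHISA2 (0.98), SOX6 (0.927), UBR3 (0.836), PRKAA2 (0.856), SYNPO2L (0.842), SATB1 (0.857), EIF3J (0.935), DCAF6 (0.941), PPM1M (0.855), ADTRP (0.874), ABCA9 (0.934), PPARA (0.833), SMAD3 (0.855), ATP1B1 (0.922), ATP2A2 (0.91), CACNA2D1 (0.948) and UQCRC2 (0.978). In DG F2 this held for ACSL1 (0.882) and PRKAB1 (0.932). In CN F2 this held for PPM1M (0.88), COL4A1 (0.833), TRIB3 (0.837) and SESN2 (0.834). The muscle score was 4.87 in DG M1, the lowest of the DG pools, and 10.3 in CN F2, the highest of the CN pools.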

How the results depend on the processing

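Which loci passed depended on the muscle covariate, the tool and single pools. Without the score 0 loci passed FDR ≤0.05, and there were 278 with DESeq2, 29 with edgeR's likelihood-ratio test and 3516 with limma voom. Over the pools with a share above 50%, an alternative chosen after seeing the data, there were 8. These pools hold 1 CN pool (F2), which the fit assumes to vary like the 3 DG pools, so the counts from them compare that pool with DG. At FDR ≤0.20 the 0 loci became 9 without the count filter, 1702 with DESeq2, 638 with edgeR's likelihood-ratio test, 1122 with sex as a covariate and 8556 with limma voom, and 486 over the same pools with 1 CN pool. Leaving out 1 pool gave 0 to 0 and 0 to 4422 loci at these thresholds, the highest without DG M1.

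With the score, the 116 loci at FDR ≤0.05 became 209 without the count filter, 862 with DESeq2, 531 with edgeR's likelihood-ratio test, 77 with the 8 pools only, 438 with limma voom and 0 with the linear share, with muscle-enriched genes removed and with the muscle signal subtracted. Among forms chosen after seeing the data there were 0 with the logit share and with score and share together and 14 with the score and its square. The 1696 loci at FDR ≤0.20 became 2908 with limma voom and 0 with the linear share, with muscle-enriched genes removed and with the muscle signal subtracted, and 0 with the logit share, 758 with the score and its square and 449 with score and share together in the forms chosen later. Leaving out 1 pool gave 0 to 439 and 185 to 3059 loci. The depot difference gave 0 to 1 names, and the muscle score difference 0.272 to 2.519. The cause was not tested.

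With the replicate block on the labels F1 to M2, 0 and 1611 loci passed the 2 thresholds without the score, and 40 and 1696 with it. Deviations of CN and DG pools with the same label correlated between -0.13 and 0.597 (mean 0.242). Those with different labels correlated between -0.532 and 0.501 (mean -0.0841). The labels mark sex and a number, and the CN and DG pools came from different dams, so the labels were not taken to pair the pools.

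Of 27 named genes past FDR ≤0.05 with the score, 27 stayed past it with RLE scaling, 22 with sex as a covariate, 17 with the 8 pools only, 14 with the block and 0 with the linear share. Subtraction of the muscle signal put the median log2 difference of all loci at -0.53, and DG F1 was the only pool above the cap of 0.98. Log2 differences of named genes that changed sign are given by setting. With the muscle signal subtracted they were SOX6 -1.03, UBR3 -0.36, PNPLA3 0.81, MLXIPL 0.71, ANGPTL4 0.88, CIDEA 0.53, CIDEC 0.91, CPT1A 0.65, MBD3 -0.28, PPM1M 0.34, RDH10 0.11, ADTRP 0.47, NNAT 0.14, EBF2 0.35, PLIN1 0.57, ACLY 0.33, ME1 0.61, ACACA 0.58, ACSL1 0.74, PPARA -0.47, HADHB 0.61, ADRB3 0.97, UCP1 0.66, ADIPOQ 0.82, LEP 1.24, MSMO1 0.26, INSIG1 0.30, IDI1 0.69, CYP51A1 0.41, POSTN 0.96, TCF7L2 0.45, TGFBR1 -1.82, LTBP2 0.94, TEF -2.11, NR1D1 -2.06, NFIL3 1.03, PTPN11 -2.46, DNMT3A -1.83, IGF2R -1.66, IGFBP7 0.72, PSPH 0.60, TRIB3 0.87, SESN2 0.92, MKI67 -1.86, AURKA 0.36, TOP2A -1.58, SDHB -3.72, ATP5B -0.18 and UQCRC2 -1.67. In the pools under a 50% share, with DG M1 as the lone DG pool, they were AMOT -0.014, ITGB6 -4.17, SHISA2 -2.0, SOX6 -0.24, UBR3 -0.76, PRKAA2 -1.42, KREMEN1 -0.38, MURC -2.29, SYNPO2L -3.81, HIST2H2BE -0.16, MBD3 -0.77, SATB1 -0.11, DCAF6 -0.44, SLC27A1 -0.53, POSTN 0.14, NFIL3 0.036, ATP1B1 -0.28, ATP2A2 -0.97, CACNA2D1 -1.45, DNMT3A -0.16, IGF2R -0.21, IRS1 -1.97, AURKA 0.47, SDHC -0.12, SDHB -0.47, ATP5B -0.23 and UQCRC2 -0.51. In the pools over it, with CN F2 as the lone CN pool, they were ANGPTL4 0.52, CPT1A 0.069, H1FX 2.05, PLIN1 0.20, HADHB 0.36, ADRB3 0.26, UCP1 0.38, LEP 0.32, COL4A1 0.14 and SESN2 0.37. With the linear share they were ITGB6 -1.10, SHISA2 -0.93, LEP 0.12, CACNA2D1 -0.39 and SDHB -0.027. With the logit share they were ITGB6 -0.50 and SHISA2 -0.44. With the squared score they were SDHB -0.22 and ATP5B -0.18. With score and share together they were HADHB 0.0028, LEP 0.24, IGFBP7 0.25, SESN2 0.092 and SDHB -0.13. With limma voom they were H1FX 0.41 and LEP 0.042. With 1 pool left out, ITGB6 ran from -0.13 to 0.42, with the sign changed without DG F2, SHISA2 ran from -0.029 to 0.61, with the sign changed without DG M1, H1FX ran from -1.64 to 1.28, with the sign changed without CN F1 and LEP ran from -0.53 to 0.045, with the sign changed without CN F1 and DG M1.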
